A study of Drosophila melanogaster with 6 samples.

Results

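The maternal Toll-Dorsal pathway is described here through 7 genes, taken by their CG identifiers from the 9073 listed genes: spz (CG6134), Tl (CG5490), Myd88 (CG2078), tub (CG10520), pll (CG5974), cact (CG5848) and dl (CG6667). All 7 were found in the table and all had reads in all 6 libraries, so the filter on low values removed none. RNA was measured by poly(A) sequencing of whole Oregon R embryos, a wild-type Drosophila stock, at the late blastoderm, just before gastrulation. Eggs laid over 0 to 1 h at 25 °C were injected before cells formed and then kept at 18 °C. The control group received water. The other group received double-stranded RNAs against the pair-rule genes even-skipped (eve) and runt (run) at 1 µg/µl each, which act through RNA interference, and its libraries are called dsRNA libraries. Each group had 3 libraries of about 50 pooled embryos each, so each value is a mean over many embryos. Where in the embryo the dsRNA acted was not tested.

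In the early fly embryo the Toll pathway reads out a ventral signal. The ligand Spätzle is cut by a protease cascade in the space around the egg and binds the receptor Toll. The adaptors MyD88 and Tube and the kinase Pelle pass the signal on to Cactus, an IκB-like inhibitor, which is destroyed and releases Dorsal, a Rel-family (NF-κB) transcription factor, into ventral nuclei. The mother loads the RNAs of these components into the egg. Embryos that lack the maternal product of Tl, spz, tub, pll or dl develop without ventral structures, and embryos that lack the maternal product of cact are ventralised. Dorsal then switches on twi and sna ventrally and genes such as rho and sog laterally, and keeps zen and dpp off except on the dorsal side.

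No member differed between the groups past the test. Of the 7 genes, 0 passed an adjusted p of 0.05 in limma over all 9073 genes (adjusted p = 0.999 for each), against 0.011% of all genes, which is 1 gene, noc, and that 1 became 0 with the replicate number as a block. Without water replicate 2 the limma count was again 0 of 7, against 0.0441% of all genes. Unadjusted, 0 of 7 members had a limma p under 0.05, against 2.27% of all genes. The groups overlapped for each of the 7, and they did not overlap for 6.35% of all genes. With only 7 genes, a count of 0 does not set the members apart from that share. The median log2 fold change of the members was 0.03, and that of all genes was −0.002. Values are normalised read counts as mean ± SD with n = 3 per group, and log2 fold changes ± SE are dsRNA over water, with 1 added to each normalised count, so that folds of thinly counted genes come out too small. The labels name no separate injection days for the replicates, and the p-values then measure only the spread between these samples, which may be technical. In whole embryos, fewer cells that hold a transcript and less of it per cell cannot be told apart.

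The 9073 genes took 23234425 to 49364110 reads per library. Water replicate 2 stood apart, with a score of 60.6 on the leading principal component (54.7% of the variance) against −27.7 to 5.61 elsewhere. Among the injected targets, run had a log2 fold change of −0.64 ± 0.18 with no overlap between groups, and eve one of 0.11 ± 0.23. Of all genes, 3.36% were lower without overlap, as run was. Neither target passed limma over all genes (adjusted p = 0.999 each), so directions refer to the libraries as labelled. Dropping the outlying water library moved the log2 fold change of run to −0.83 ± 0.10 (limma adjusted p = 0.0521). That of eve then changed sign, to −0.16 ± 0.11 (limma adjusted p = 0.891), so neither target passed in that fit. The labelled stage was checked against markers. The summed level of nullo, slam, bnk, halo and Sry-alpha, which are used while the blastoderm forms cells, was 187173 to 249304 normalised counts in water and 204911 to 327744 in dsRNA libraries, most of it from slam. Of these, nullo, needed for the membranes of the forming cells, had water values of 5348, 6306 and 4558 and dsRNA values of 8936, 10176 and 9087, with no overlap, against 2.99% of all genes higher without overlap. Its log2 fold change was 0.81 ± 0.12 (limma adjusted p = 0.627), and it passed without water replicate 2 (limma adjusted p = 0.0293). The part of this marker's difference in the members' values was not tested. The 7 markers of later tissues summed to 156 to 735 and 392 to 613, most of it from elav. Water replicate 2 had the lowest blastoderm sum and the lowest later-tissue sum of the 6 libraries. Pole-cell markers (5 measured of 7) summed to 9913 to 14734 and 9576 to 11172, with the highest sum in water replicate 2. Most of it came from gcl and aub. Since pgc and gcl are also on the list of maternal RNAs used below, the lists are not separate. Of the 7 ovary, eggshell and yolk markers, Yp3 alone was measured, at 3.86 to 10.9, and the others were not analysed here.

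Spätzle, the ligand, had the lowest fold change of the 7 and varied most between libraries. Its gene spz (BDGP6 chromosome 3R, 27064990 to 27070070, minus strand) had 367, 798 and 409 normalised counts in the water libraries, given here and below as replicates 1, 2 and 3, against 218, 321 and 436 in the dsRNA libraries. Water replicate 2 was the highest of the 6 and dsRNA replicate 1 the lowest, and dsRNA replicate 3 lay above water replicates 1 and 3. The means were 525 ± 238 and 325 ± 109, a log2 fold change of −0.65 ± 0.37 with a 95% confidence interval of −1.54 to 0.23. Without water replicate 2 it was −0.31 ± 0.28. The counts rested on 302 to 620 reads per library.

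Toll itself, the receptor, was the steadiest member together with cact. Tl (BDGP6 chromosome 3R, 26799041 to 26842403, plus strand) had 55178, 55656 and 50456 normalised counts with water, against 55611, 57689 and 51352 with dsRNA. In both groups replicate 3 was the lowest, and the whole spread from lowest to highest library was 1.14-fold. The log2 fold change was 0.03 ± 0.06, with an interval of −0.11 to 0.17, equal to 0.923-fold to 1.13-fold.

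The signal inside the cell runs through MyD88 and Tube, death-domain adaptors, and Pelle, a kinase related to the mammalian IRAK kinases. Myd88 (BDGP6 chromosome 2R, 9302823 to 9308722, minus strand) had water values of 2489, 3008 and 1912 and dsRNA values of 2253, 2613 and 2585. The dsRNA values all fell inside the range of the water values. Its means were 2470 ± 548 and 2484 ± 200, a log2 fold change of 0.03 ± 0.17 with an interval of −0.37 to 0.43.

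The adaptor gene tub (BDGP6 chromosome 3R, 4387742 to 4389813, plus strand) had water values of 2040, 3020 and 1905 and dsRNA values of 1445, 1713 and 2251. As with spz, water replicate 2 was highest, dsRNA replicate 1 lowest, and dsRNA replicate 3 above water replicates 1 and 3. Its means were 2322 ± 609 and 1803 ± 411, a log2 fold change of −0.36 ± 0.23 with an interval of −0.90 to 0.18, and −0.15 ± 0.17 without water replicate 2.

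The kinase gene pll (BDGP6 chromosome 3R, 27251131 to 27253182, minus strand) had water values of 2888, 3369 and 2483 and dsRNA values of 2899, 3101 and 2859. The dsRNA libraries again lay inside the water range. The log2 fold change was 0.03 ± 0.12, with an interval of −0.25 to 0.31. An annotated exon of TfIIA-L on the other strand covers 1.61% of the pll exon length, and reads of the pair could be mixed, since the strand setting of the counting is not given.

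The inhibitor gene cact (BDGP6 chromosome 2L, 16313036 to 16326207, minus strand) had water values of 35164, 34108 and 33832 and dsRNA values of 37683, 37375 and 32840. The dsRNA libraries split, with replicates 1 and 2 above all water libraries and replicate 3 below them. The means were 34368 ± 703 and 35966 ± 2711, a log2 fold change of 0.06 ± 0.06 with an interval of −0.08 to 0.21. Exons of fzy on the other strand cover 1.87% of its exon length, and for spz the neighbour CG43935 covers 0.212%.

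The transcription factor gene dl (BDGP6 chromosome 2L, 17436830 to 17450364, minus strand) had the fewest reads of the 7. It had 86.9, 165 and 90.4 normalised counts with water, against 97.5, 102 and 127 with dsRNA, from 91 to 143 reads per library. Water replicate 2 was again the highest library and the other 5 lay between 86.9 and 127. The log2 fold change was −0.01 ± 0.30, and its interval of −0.72 to 0.70 leaves changes of 0.607-fold to 1.62-fold within the error. Without water replicate 2 it was 0.28 ± 0.21. The direction also turned positive with TMM and with upper-quartile scaling. In the BDGP6 annotation 0 bases of its exons are shared with another gene. The mother supplies dl RNA to the egg, the annotation release behind the counts is not known, and how fully the count of dl reflects its RNA was not tested.

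**Figure D1:**
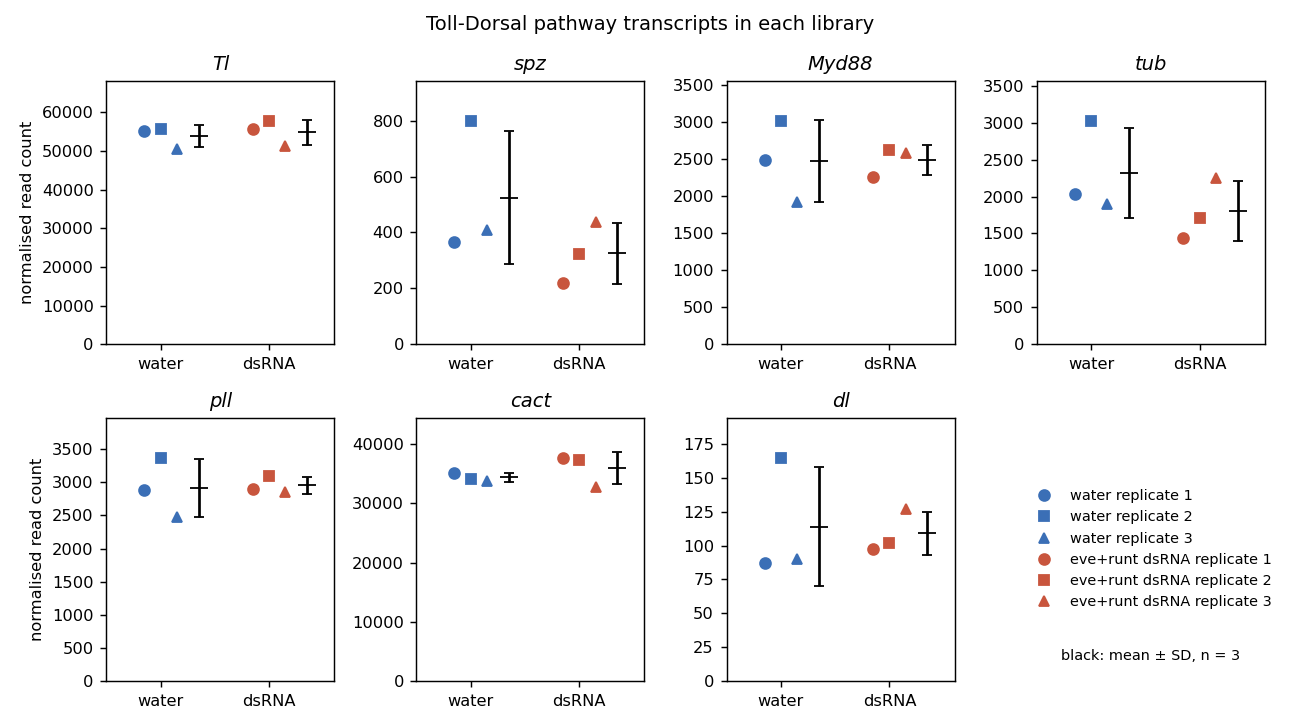
Normalised read counts (vertical axes, each starting at 0) of the 7 pathway genes in the 3 water and 3 dsRNA libraries, with symbols for replicate numbers and black marks for mean ± SD. The groups overlap in each panel, and water replicate 2 is the highest point for spz, Myd88, tub, pll and dl.

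**Figure D2:**
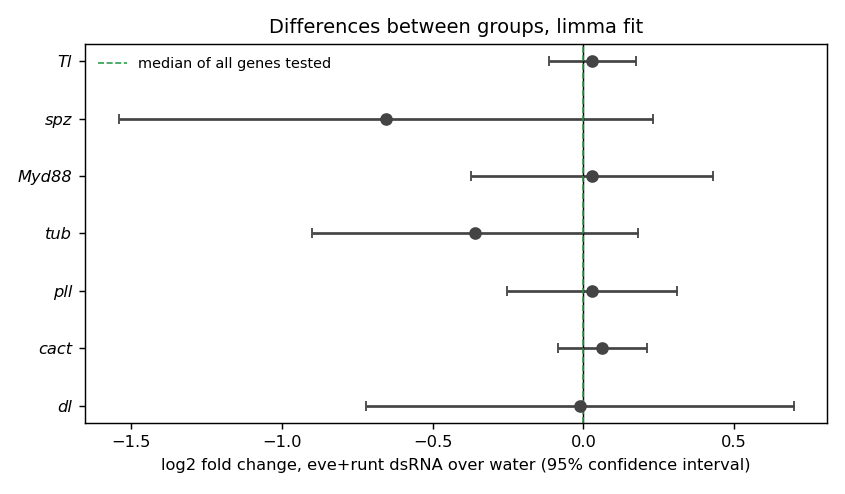
Log2 fold changes of dsRNA over water for the 7 genes (points) with 95% confidence intervals from limma (bars); the dashed line is the median of all genes. Each interval contains 0, and the intervals of Tl and cact are the narrowest while that of spz, from −1.54 to 0.23, is the widest.

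Levels of the members were set against each other per kilobase of exon, using the union of annotated exons. In water, Tl stood at 10343 ± 553 and cact at 10339 ± 212 normalised counts per kb, with no difference beyond their spread. Next came pll at 1509 ± 230, tub at 1158 ± 303, Myd88 at 684 ± 152, spz at 222 ± 101 and dl at 17.7 ± 6.84. The order from pll down to dl was the same in all 6 libraries. The mean ± SD ranges of pll and tub in water overlapped. Those of tub and Myd88 did not, although among dsRNA libraries the lowest tub value, 720 per kb, lay just under the highest Myd88 value, 723. The steps from cact to pll, from Myd88 to spz and from spz to dl were larger than the spread. After dsRNA the levels per kb were 10559 ± 621 for Tl, 10820 ± 816 for cact, 1529 ± 67.1 for pll, 899 ± 205 for tub, 687 ± 55.4 for Myd88, 138 ± 46.0 for spz and 16.9 ± 2.47 for dl.

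Among 8973 genes with an annotated exon length, Tl ranked 212 to 257 and cact 211 to 236 from the top, depending on the library. The ranks were 1944 to 2301 for pll, 2204 to 3104 for tub, 3111 to 3604 for Myd88 and 4207 to 5434 for spz. For dl they were 6418 to 7129, below the median gene in each library, with the same doubt on how fully its RNA was counted. The median gene stood at 219.8 to 269 normalised counts per kb. Per kb of the longest transcript in place of the union of exons, an alternative chosen after seeing the data, cact stood at 14588 ± 299 in water, above Tl at 10482 ± 560, and was above it in all 6 libraries; dl, at 24.1 ± 9.31, was still the lowest in all 6.

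**Figure D3:**
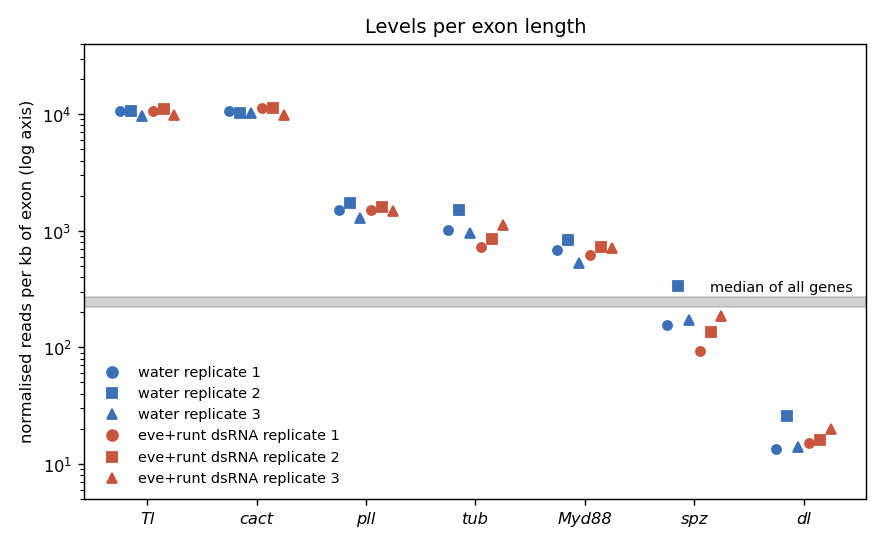
Normalised reads per kb of exon on a log axis for the 7 genes, one symbol per library, ordered by their mean in water; the grey band is the range over libraries of the median gene. Tl and cact lie near 10343 and 10339 per kb in water, and dl lies at 17.7, below the band in every library.

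Apart from the 1 added to each normalised count, ratios between partners within a library do not depend on how libraries are scaled. In all, 4 were compared. The log2 ratio of the inhibitor cact to dl was 8.29 ± 0.52 with water against 8.36 ± 0.31 with dsRNA (SD over 3 libraries), a difference of 0.07 (exact two-sided permutation p = 0.9). The log2 ratio of the ligand spz to its receptor Tl was −6.77 ± 0.57 and −7.45 ± 0.56, a difference of −0.68 (exact permutation p = 0.3). The log2 ratio of pll to tub was 0.35 ± 0.17 and 0.73 ± 0.35, and that of Myd88 to tub was 0.10 ± 0.17 and 0.48 ± 0.25. Both differed by 0.39 (exact permutation p = 0.3 and p = 0.2). Adjusted over the 4 ratios by Benjamini-Hochberg the exact permutation p-values were 0.9 for cact to dl and 0.4 for the others, and 3 against 3 libraries cannot give a p under 0.1. For Myd88 to tub, dsRNA replicates 1 and 2 lay at 0.64 and 0.61, above all other libraries, while dsRNA replicate 3 lay at 0.20, below water replicate 1 at 0.29. Within replicate numbers 1, 2 and 3 this ratio was higher after dsRNA by 0.35, 0.62 and 0.19, in 3 of 3 pairs (exact sign-flip permutation p = 0.25, the smallest that 3 pairs can give). The other ratios did not have the same sign in all 3 pairs.

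The members differed in how much they varied from library to library, in a graded series. Measured as log2 distance from each gene's own 6-library mean, spz lay at 1.02 in water replicate 2 and at −0.85 in dsRNA replicate 1. For tub these values were 0.59 and −0.47. Water replicate 2 lay at 0.60 for dl, 0.29 for Myd88 and 0.21 for pll, but at 0.04 for Tl and −0.04 for cact. The SD within groups on the log2 scale was 0.55 for spz, 0.39 for dl, 0.34 for tub, 0.25 for Myd88, 0.16 for pll and 0.08 for Tl and cact. Over all genes of the same expression decile the median SD was 0.25, 0.32, 0.14, 0.11, 0.11 and 0.07 respectively. Within their deciles the members' SDs lay between percentiles 57.0 and 86.4, with tub and spz the highest at 86.4 and 86.3.

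The same libraries stood out in other maternal RNAs. Water replicate 2 was above both other water libraries for 6 of 7 members, for 18 of 19 measured RNAs of a list of maternally loaded transcripts such as bcd, smg and CycB, and for 42.6% of all genes. It was below both for 10 of 10 lateral genes downstream of Dorsal, 9 of 12 ventral ones, 13 of 15 dorsal-side genes and 42.7% of all genes. dsRNA replicate 1 was the lowest of the 6 libraries for 2 of 7 members (spz and tub), 13 of 19 maternal RNAs and 22.2% of all genes. The members' share, 28.6%, was thus near that of all genes, and water replicate 3 was the lowest library for 3 of 7. Summed over the maternal list, levels ran from 312777 to 446122 normalised counts in water and from 281351 to 342449 in dsRNA libraries. Between groups, 0 of the 19 passed limma over all genes (median log2 −0.15, and −0.02 without water replicate 2). The lowest p-values were those of stau, plu and gnu, which act in RNA transport and in the early nuclear cycles, at −0.15 ± 0.06, −0.43 ± 0.20 and −0.69 ± 0.34 (limma adjusted p = 0.999 each). For stau, 1 of the 19, the groups did not overlap, lower after dsRNA, against 3.36% of all genes. Of the marker lists, 0 of 5 blastoderm, 0 of 5 pole-cell and 0 of 7 later markers passed (medians 0.24, −0.25 and 0.12). Without water replicate 2 these medians were 0.09, 0.009 and −0.14, and 1 of 5 blastoderm markers, nullo, passed. With all 6 libraries the groups did not overlap for btl, 1 of 7 later markers, higher after dsRNA, against 2.99% of all genes. The part of these library patterns in the values of spz, tub and dl was not tested.

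**Figure D4:**
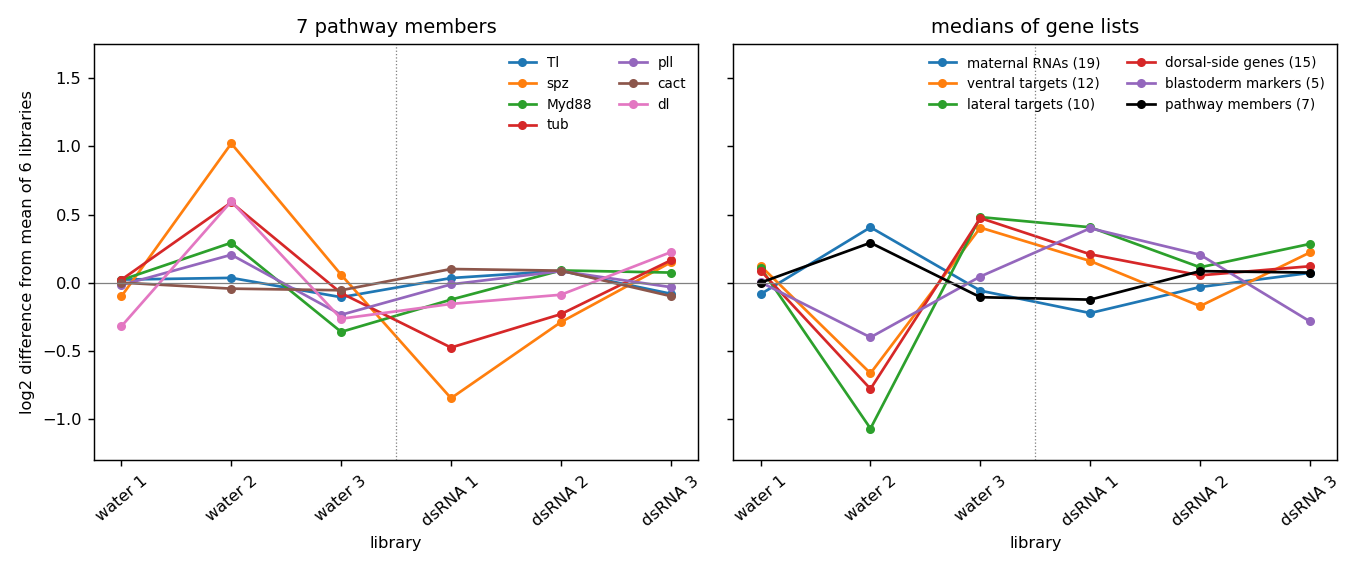
Log2 distance of each library from the gene's 6-library mean, for the 7 members (left) and as medians of gene lists (right); lines only join the values of one gene or list, since replicates have no order. In water replicate 2 spz lies at 1.02 and the maternal RNAs at a median of 0.41, while the lateral, dorsal-side and ventral target lists lie at −1.07, −0.78 and −0.66.

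For each member the 3 genes with the most similar pattern were sought by Pearson's r of log2 values over the 6 libraries, among 6719 other genes with a mean of at least 50 normalised counts. For spz these were CG9917, pes and CG11342 (r = 1.00, 0.999 and 0.998), and 1027 genes had an r of at least 0.9. For tub they were CG7408, CG31262 and lama (0.999, 0.998 and 0.998), with 894 genes at or above 0.9. For dl they were CG6927, ova and Exn (0.985, 0.981 and 0.977), with 262 genes. The nearest genes were Pka-C1, CG5608 and CG7840 for Tl (0.995, 0.994 and 0.994) and rhi, CROT and Mlf for cact (0.997, 0.996 and 0.995). They were SPoCk, CG44774 and CG3281 for Myd88 (0.991, 0.990 and 0.986) and Spt-I, Uxs and CG11141 for pll (0.997, 0.996 and 0.996). All 6 points are shared between the genes, and with so few points many genes reach a high r, so these are descriptions of the libraries.

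Upstream of the receptor, 9 of 15 listed genes of the proteolytic cascade and its blood counterpart were measured and 0 passed limma over all genes in either direction (median log2 −0.04). Per kb, ea, the protease that cuts Spätzle, stood at 2392 in water and 2502 after dsRNA, and its serpin inhibitor Spn27A at 1378 and 1340. The protease snk stood at 356 and 326, gd at 70.6 and 61.2, and ndl, made by ovarian follicle cells, at 3.32 and 2.61 per kb. For gd the water counts were 129, 214 and 136 and the dsRNA counts 140, 133 and 142, so its higher water mean came from replicate 2. The gene ndl was thinly counted, at 20.9 to 31.7 normalised counts per library. The 3 lowest p-values were those of ndl (log2 −0.33 ± 0.24), modSP (0.40 ± 0.34) and Hayan (0.31 ± 0.36), each with a limma adjusted p = 0.999. The groups did not overlap for ndl, which was lower in all 3 dsRNA libraries; that is 1 of 9, against 3.36% of all genes that were lower without overlap.

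Of 19 listed regulators of Toll signalling and of Dorsal entry or activity, all were measured and 0 passed (median log2 −0.001). The lowest p-values were those of CkIIalpha and CkIIbeta, the subunits of casein kinase II, which phosphorylates Cactus, and of Ulp1, a SUMO protease. CkIIalpha had a mean of 5750 ± 1073 with water against 4567 ± 501 with dsRNA (log2 −0.32 ± 0.15), CkIIbeta at 2875 ± 317 and 2478 ± 121 (log2 −0.21 ± 0.10) and Ulp1 at 13591 ± 725 and 12678 ± 240 (log2 −0.10 ± 0.06). The limma adjusted p was 0.999 for each. The groups did not overlap for 1 of 19, CkIIbeta, which was lower after dsRNA, a share near the 3.36% of all genes. The co-repressor gro, which Dorsal recruits for repression, had a log2 fold change of 0.05 ± 0.06, and the SUMO-conjugating enzyme lwr one of 0.01 ± 0.05. The feedback ligand wntD stood at 0.10 ± 0.31.

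The other Rel-family genes and the Imd branch gave 0 of 12 past the test (median log2 0.04). Rel, the NF-κB precursor of the Imd branch, had water values of 574.5, 668 and 669 and dsRNA values of 518, 480 and 573.9. The groups did not overlap, for 1 of 12 genes against 3.36% of all genes, and water replicate 1 and dsRNA replicate 3 were nearly equal. Its log2 fold change was −0.28 ± 0.13 (limma adjusted p = 0.999). Tab2 and IKKbeta followed at −0.44 ± 0.32 and −0.21 ± 0.19. Dif, a Rel-family factor of the immune response that lies near dl on chromosome 2L, was at 0.488 per kb in water and 0.7 after dsRNA. Of 12 antimicrobial peptide genes, the immune output of these pathways, 3 were measured and 0 passed, and none of the 3 (Drs, DptA and AttB) exceeded 14.9 normalised counts in any library.

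Genes downstream of Dorsal, whether or not Dorsal acts on them directly, were read as 3 lists. The figures label the ventral and lateral lists as targets. In each list 0 genes passed over all genes. Of the ventral genes, 12 of 13 were measured, with a median log2 fold change of 0.16 that turned to −0.27 without water replicate 2. Twi and Ilp4 stood at 0.30 ± 0.23 and 0.28 ± 0.22, and Mef2, a muscle factor, at −0.80 ± 0.49. Of the lateral genes, 10 of 10 were measured, with a median of 0.48 that became −0.01 without water replicate 2. The repressor brk had a mean of 2191 ± 461 with water against 3006 ± 486 with dsRNA (log2 0.47 ± 0.19), the neural factor vnd at 0.53 ± 0.26 and SoxN at 0.53 ± 0.35, each with a limma adjusted p = 0.999. Of 15 dorsal-side genes, all measured, the median was 0.19 and became −0.12 without water replicate 2. The BMP-binding tsg was the 1 of these 15 whose groups did not overlap, higher after dsRNA (log2 1.14 ± 0.12, limma adjusted p = 0.103), against 2.99% of all genes higher without overlap, and without water replicate 2 it passed (limma adjusted p = 0.0293). Doc1 and tld stood at 0.57 ± 0.27 and 0.28 ± 0.15 (limma adjusted p = 0.999 each).

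**Figure D5:**
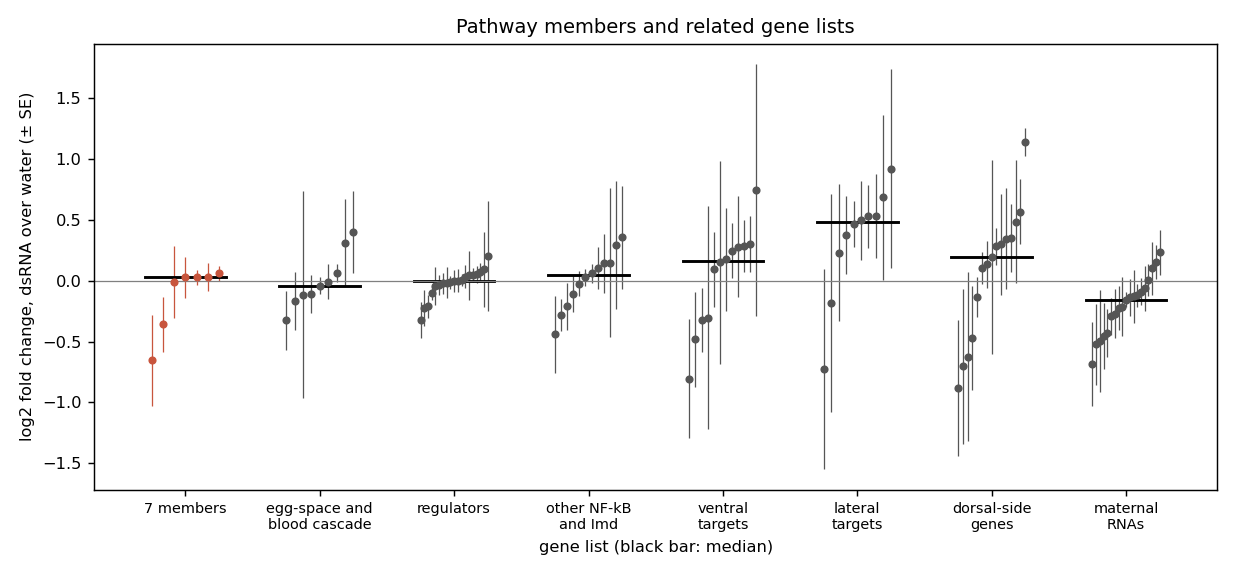
Log2 fold change of dsRNA over water ± SE for each measured gene (points) of the 7 members and 7 related lists, with black bars for list medians. The members' median of 0.03 lies near 0, as do the medians of the cascade (−0.04) and the regulators (−0.001), and the lateral targets have the highest median, 0.48.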

How the data were processed

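Per the submitters' processing notes, the authors used TopHat2 version 2.0.9, Bowtie2, HTSeq and DESeq with build dm3, in no stated order. Annotation release and strand use: not given in the sources used here. Each deposited value is a normalised signal: minus 1, it was a whole multiple of 1 step per library (100% within 0.01 read), that is, a read count divided by a size factor. Of all listed reads, 12.4% to 14.8% had no unique alignment, 0.72% to 0.75% were ambiguous and 4.32% to 4.91% were assigned to no feature. These 3 rows were not tested. There were 0 columns of other samples.

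Symbols came from RefSeq Release 6 plus ISO1 MT (8987 of 9073 identifiers matched), and positions and exon lengths from BDGP6, whose build differs from dm3; no coordinate was converted. Groups came from the titles. Log2(normalised count + 1) was fitted with limma 3.58.1 in R 4.3.3 (trend, robust) and adjusted by Benjamini-Hochberg over 9073 genes, threshold 0.05; a minimum mean of 1 removed no gene. Ratios were tested by exact permutation (scipy 1.17.1). The fit was run on simulated counts with the same dispersion for every gene and no outlying library. That run cannot show how the fit behaves with replicates as uneven as these. No count model was run. Alternatives were limma-voom on recovered reads, TMM and upper-quartile scaling, pseudocounts 0.5 and 8, no filter, a mean of at least 5 CPM, array quality weights (gene-by-gene), the replicate block and leaving out each library.

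Replicates differed beyond counting noise (chi-square per degree of freedom 16.5 to 87.7). Deviations of same-numbered libraries from their group means correlated across genes at 0.24, 0.37 and 0.22, against −0.38 to 0.11 for libraries of other numbers. A gene's deviations cancel out within each group, so high same-number correlations push the others down, and the values are not independent. The labels do not say why numbers are shared. The main limma fit, its intervals and the permutation tests of the ratios left this pairing out. It entered only the replicate block and the sign-flip tests. With the block the SE of Tl was 0.03 and that of spz 0.29 (limma adjusted p = 0.901 and 0.898).

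Members and lists were chosen with earlier results of these data known. Named genes are the members, up to 3 of each other list by lowest p, and the 3 nearest in pattern to each member; others were chosen after their values were seen. No sequence is shown.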

Additional observations from a re-analysis of the deposited data

How the results depend on the processing

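Across the 15 alternatives run, the number of members called was 0 of 7 each time (0 of 6 with a mean CPM of at least 5, which left out dl), and the members' limma adjusted p-values lay between 0.365 and 1. The log2 fold changes of spz (−0.89 to −0.31), tub (−0.53 to −0.15) and cact (0.03 to 0.13) kept their sign when each library was left out in turn. Those of Tl (−0.016 to 0.077), Myd88 (−0.14 to 0.18), pll (−0.080 to 0.14) and dl (−0.17 to 0.28) did not, and the ratio of cact to dl ran from −0.23 to 0.25. For dl the sign also turned with TMM scaling (0.0091), upper-quartile scaling (0.0239), limma-voom (0.0242) and array quality weights (0.19); the cause was not tested. Over all genes, 1 was called higher and 0 lower. With the replicate block 0 were called higher, and the block changed no other call; for the 4 ratios, paired after seeing the data, exact sign-flip permutation p-values were 0.25 to 1. With array quality weights 4 were higher and 1 lower, and on leaving out each library 0 to 3 were higher and 0 to 1 lower. The scalings moved the median of all genes to at most 0.03. Depth limits dl most, with 91 to 143 reads per library. The edgeR and DESeq2 alternatives were not run, and the planned search of promoters and proteins was not made.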

Other observations

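Counted levels of pathway genes ran over a wide range. Per kb of exon in water, the inhibitor cact and the receptor Tl were near 10339 and 10343 normalised counts, the SUMO-conjugating enzyme lwr was at 9058 and the co-repressor gro at 7037. The factor that the inhibitor holds, dl, was at 17.7, and the Rel-family genes Rel and Dif at 182 and 0.488. Dif had at most 8.52 normalised counts in any library. Within a library, cact had 206 to 400 times the normalised count of dl, before any correction for length. The mother supplies dl RNA to the egg, the annotation release behind the counts is not known, and how fully the count of dl reflects its RNA was not tested.

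Of the Toll regulators, 11 of 19 were highest of the 6 libraries in water replicate 2, as were 5 of 7 members, 17 of 19 maternal RNAs and 32.0% of all genes. These counts were made after the library had been seen to stand apart.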
